A study of Mus musculus with 23 samples.

Results

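The genes of the mitochondrial ribosome were followed in mouse embryonic stem cells (ESCs) before and after removal of the DNA-binding domain of KDM2B. Members were the genes whose symbol begins with Mrpl or Mrps followed by a number, the nuclear genes named for proteins of the large and small subunit. Each was taken by its symbol alone, but the family was chosen with earlier results of these data known. The expression tables list 23369 gene names, of which 76 were members. They comprised 49 genes of the large subunit, with Mrps18a and Mrps30 counted there because their proteins sit in that subunit, 26 genes of the small subunit, and Mrps36, whose protein is now assigned to the 2-oxoglutarate dehydrogenase complex. A gene was tested when it reached an FPKM (fragments mapped to a gene, divided by transcript length and by library size) of 0.5 in at least 3 of the 6 samples. This held for 75 members, which lay above 0.5 FPKM in all 6 samples, and for 12997 genes in all.

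All 6 samples were polyA+ RNA from Kdm2b fl/fl ESCs, in which the exon encoding most of the ZF-CxxC domain of Kdm2b is flanked by loxP sites on both alleles. The paper describes MS12 ESCs as the line in which the conditional allele was made, and the inducible ESC lines as raised from matings of mice carrying it. The cells carry a tamoxifen-inducible Cre (ERT2-Cre) driven from the Rosa26 locus. They were expanded with LIF on inactivated mouse embryonic fibroblasts, settled overnight without these feeders, and cultured for 72 hr. The 3 samples named untreated received no tamoxifen, and the 3 samples named tamoxifen received 4-hydroxytamoxifen, at 800 nM by the sample labels and at 800 µM by the text of the series. The floxed alleles and Cre were thus shared by both groups. The paper does not state how many such cell lines the 6 samples came from. No tamoxifen-treated cells with Cre but without floxed Kdm2b are analysed here, so the drug and the deletion cannot be told apart. The ChIP-seq samples of the series are not analysed here.

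The mitochondrial ribosome translates the few messenger RNAs made from mitochondrial DNA, all of which encode core subunits of the oxidative phosphorylation complexes. Its ribosomal RNAs are made inside the organelle, whereas every one of its proteins is encoded in the nucleus, translated in the cytosol and imported. Many of the proteins descend from those of the bacterial ribosome and others were acquired in the mitochondrial lineage. ESCs rely strongly on glycolysis, and their mitochondria mature as they differentiate.

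Values taken over all genes set the frame for the members. Kdm2b itself, measured over the whole gene and therefore including reads from outside the floxed exon, had an FPKM of 26.95, 21.5 and 27.7 in untreated replicates 1, 2 and 3 and of 19.9, 21.9 and 25.04 in tamoxifen replicates 1, 2 and 3. The groups overlapped (log2 fold change -0.19, SE 0.21, limma adjusted p = 0.999), and this measure does not resolve the deleted exon. The FPKM tables hold no read counts, and the absolute depth is unknown. The spacing of values in low genes placed the other 5 samples at 0.654 to 0.954 of the depth of untreated replicate 1. The 8 ESC markers were each at 1 FPKM or more in all 6 samples. Their summed FPKM was 3717, 2703 and 2831 in untreated replicates 1, 2 and 3 and 5238, 3225 and 2982 in tamoxifen replicates 1, 2 and 3, and their median log2 fold change was 0.20. It was highest in replicate 1 of both groups, as the member levels were. Markers of the fibroblast feeders were also detected, 7 to 8 of the 10 at 1 FPKM or more in each sample. Their summed FPKM was 125 to 291 in untreated and 174 to 223 in tamoxifen samples. Among untreated samples each feeder marker was lowest in replicate 1. With tamoxifen each was again lowest in replicate 1, except Acta2 and Tagln, which were highest there. Col1a1 had 15.6, 40.3 and 31.2 FPKM in untreated replicates 1, 2 and 3 and 19.3, 38.2 and 29.7 with tamoxifen. The part of either marker list in the results was not tested. File names contradict the sample labels on treatment in all 6 cases. The sample labels were followed, and under the reading of the file names every fold change given here would keep its size and change its sign.

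The members were well expressed and differed widely in level. Because FPKM is scaled to transcript length, levels can be set side by side between genes. The mean FPKM over the 6 samples had a median of 37.3 over the 75 tested members, against 9.43 over all tested genes. It was 37.2 for the large and 37.7 for the small subunit. Mrpl33, the counterpart of bacterial L33, was the highest with a mean of 138 FPKM and a range of 123 to 176. Mrpl52 (124), Mrpl12 (116), Mrpl20 (102) and Mrpl42 (99.99) followed, and the ranges over samples of these 5 genes overlapped, except that Mrpl20 (87.1 to 122) lay just below Mrpl33. Mrpl12 encodes the protein of the flexible stalk that engages translation factors. At the other end of the mean level stood Mrpl41 (5.71 FPKM), Mrpl17 (9.61), Mrpl19 (9.88) and Mrps25 (9.94). Mrpl41, whose protein lines the exit of the peptide tunnel, lay below the other tested members in every sample, whereas the ranges of Mrpl17, Mrpl19 and Mrps25 overlapped each other. The loci of Mrpl19, Mrpl41 and Mrps25 overlap those of Gcfc2, Dph7 and Nr2c2 by 1253, 1002 and 3536 bp, so that reads could be divided between neighbours.

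**Figure D1:**
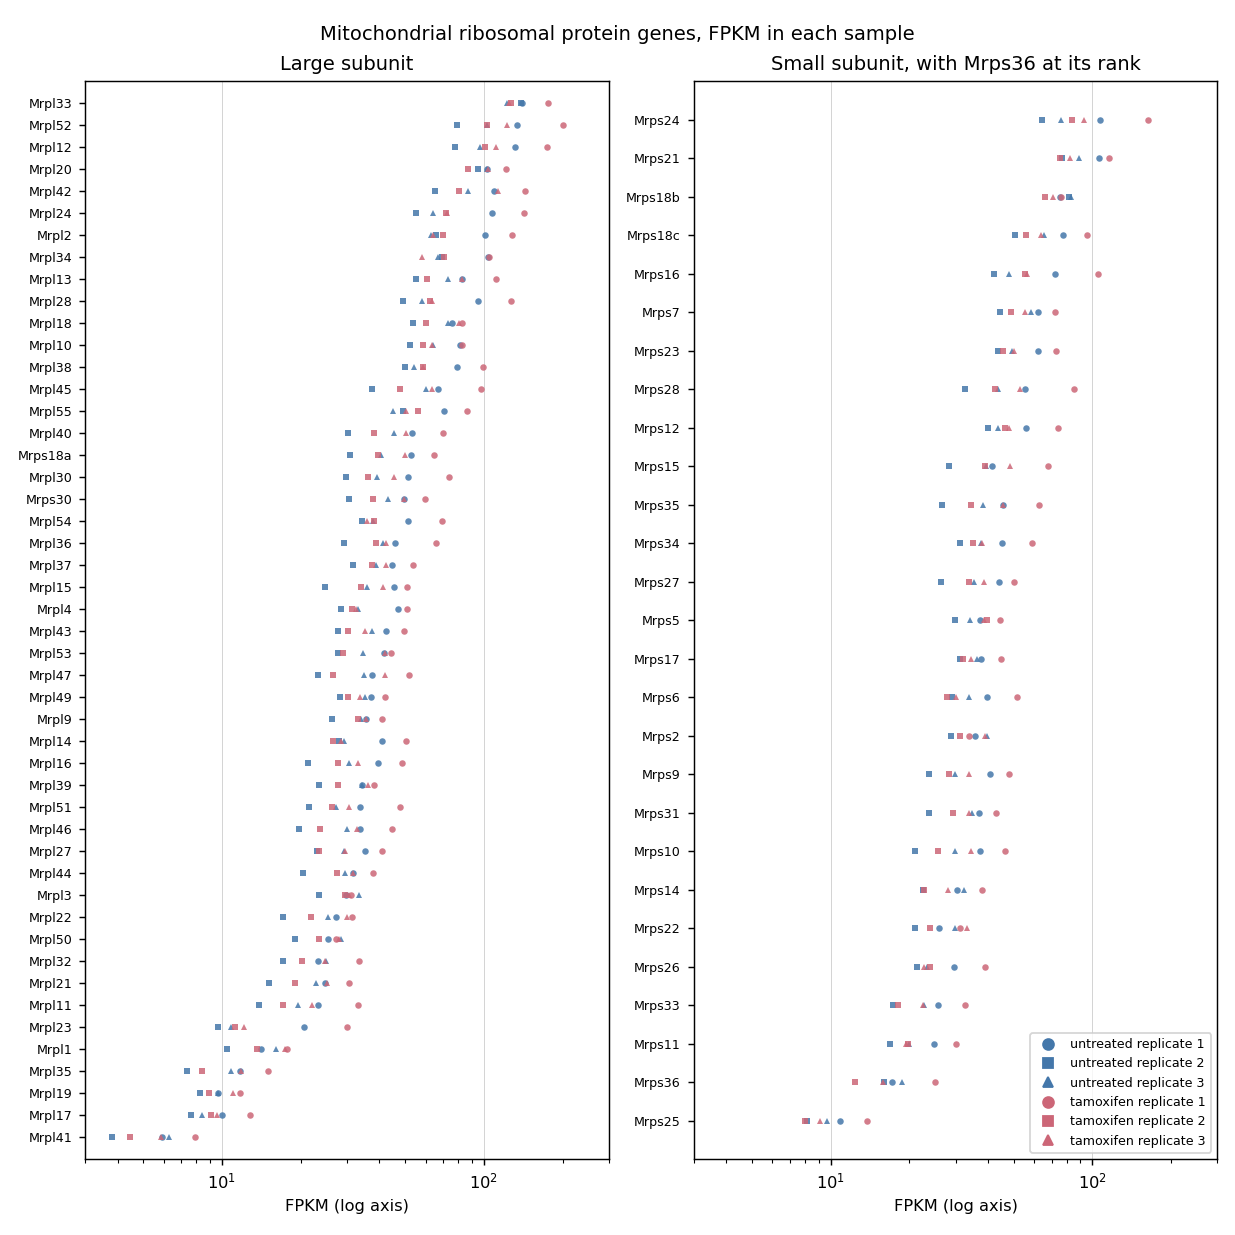
FPKM of the 75 tested members (log axis) in each of the 6 samples, ordered by mean level within the large subunit (left) and within the small subunit together with Mrps36 (right). Blue marks are untreated and red marks tamoxifen samples, with circles, squares and triangles for replicates 1, 2 and 3. Red circles lie farthest right for 70 members and blue squares farthest left for 64.

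Mrpl48 was the exception. It was listed at 0 in all 3 untreated samples and in tamoxifen replicates 2 and 3, and at 26.2 FPKM in tamoxifen replicate 1. Its locus (mm9 chr7:107697631-107756510, minus strand) overlaps that of Rab6a by 411 bp, and Rab6a had between 31.7 and 51.9 FPKM in the 6 samples. Genes at 0 in this way can be failed estimates, although the deposited status was OK for all 456 member values, those of Mrpl48 included. Mrpl48 was not tested and is left out of the comparisons between groups that follow, except in the alternative with no filter. Its promoter windows and its deposited bounds are included where those are counted.

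To ask whether expression of the mitochondrial ribosome differed between cells with and without the KDM2B ZF-CxxC domain, each gene was compared between the groups on log2(FPKM + 0.1). The typical member was slightly higher with tamoxifen. The median log2 fold change of the 75 members was 0.215 (fold change 1.16), with quartiles of 0.10 and 0.29, and the median over all tested genes was -0.02. The mean difference was above 0 for 71 members, where 47.2% of all tested genes lay above 0. In bulk RNA of this kind, a change in the number of cells of a type and a change in RNA per cell cannot be told apart. The fold changes are on the log2(FPKM + 0.1) scale and understate changes of low genes.

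The groups overlapped for nearly all members. Without a block for the replicate number 0 members passed an adjusted p of 0.05 in limma in either direction, where 0.0231% of all tested genes were called higher and 0.00769% lower. No member had an unadjusted p below 0.05 (0 of 75), where 1.85% of all tested genes were higher and 2.94% lower at that level, and the smallest adjusted p was 0.999. With the replicate number as a block 6 members (8%) were called higher, against 4.33% of all tested genes, and 0 were called lower, against 6.06%. At an unadjusted p below 0.05 the block placed 36 members higher and 0 lower, against 13.4% and 16.4% of all tested genes. The block is relevant because samples with the same number deviated together from their group means in each of the 3 numbers. Without number 1, 2 or 3 the block called 1, 0 and 1 members higher, where 5.72%, 0.277% and 2.76% of all tested genes were called higher. These fits hold fewer samples, which alone can remove calls, and the dependence on single numbers was not tested. In these fits 0 members were called lower, where 7.78%, 0.331% and 3.68% of all tested genes were. The block combined with quantile normalization called 1 member higher and 0 lower, against 4.29% and 4.51% of all tested genes, and combined with TPM scaling 1 higher and 0 lower, against 3.31% and 2.59%.

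Within replicate numbers, the tamoxifen sample was higher than the untreated sample in 3 of 3 numbers for 48 members (64%), against 24.8% of all tested genes. It was lower in 3 of 3 for 0 members, against 28.2%. For the remaining 27 members the numbers differed in direction. All 3 tamoxifen samples lay above all 3 untreated samples in 1 member (1.33%), against 3.09% of all tested genes, and the opposite held for 0 members, against 5.4%. That member was Mrps5, named here after its values were seen, a small subunit protein with a bacterial counterpart. It had 37.4, 29.9 and 34.1 FPKM untreated and 44.5, 39.5 and 38.6 with tamoxifen in replicates 1, 2 and 3. The lowest tamoxifen sample of Mrps5 was above the highest untreated sample by a small margin, and the log2 fold change of 0.28 did not pass the test (limma adjusted p = 0.105 with the block).

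Of the 6 members called with the block, 4 belong to the small and 2 to the large subunit. Mrps15 (chr4:125724172-125732780 in mm9, plus strand), the counterpart of bacterial S15, which binds ribosomal RNA early in assembly, had the highest log2 fold change. Its FPKM was 41.4, 28.3 and 39.1 in untreated replicates 1, 2 and 3 and 67.4, 39.0 and 48.3 in the tamoxifen replicates. Each tamoxifen sample was above its untreated partner, but tamoxifen replicate 2 lay below untreated replicates 1 and 3, and the groups overlapped. The mean rose from 36.3 ± 7.01 to 51.6 ± 14.5 FPKM (SD, n = 3), a log2 fold change of 0.49 (SE 0.11 with the block, limma adjusted p = 0.0300).

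Mrps28 (chr3:8802146-8923857, minus strand) and Mrps24 (chr11:5603986-5607702, minus strand) are further small subunit genes. Mrps28 had 55.4, 32.5 and 43.7 FPKM untreated and 85.2, 42.6 and 52.8 with tamoxifen. Mrps24, the counterpart of bacterial S3 at the messenger RNA entry, had 107, 63.9 and 75.8 FPKM untreated and 163, 83.2 and 92.6 with tamoxifen. In both genes replicate 1 was the highest sample of each group, and tamoxifen replicates 2 and 3 lay below untreated replicate 1. The log2 fold change was 0.43 for Mrps28 (SE 0.10, limma adjusted p = 0.0393 with the block). It was 0.42 for Mrps24 (SE 0.10, limma adjusted p = 0.0373 with the block).

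Mrps16 (chr14:21210453-21212777, minus strand), the counterpart of bacterial S16, is a gene in which human mutations cause a mitochondrial translation defect. It had 72.1, 42.2 and 48.0 FPKM untreated and 105, 55.4 and 56.4 with tamoxifen, again with replicate 1 standing above the others in both groups. Its log2 fold change was 0.39 (SE 0.10, limma adjusted p = 0.0467 with the block).

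The large subunit members called were Mrpl52 (chr14:55045746-55048587, plus strand) and Mrpl42 (chr10:94943440-94964561, minus strand), both without a bacterial counterpart. Mrpl52 had 134, 78.8 and 103 FPKM untreated and 200 FPKM, 103 and 123 with tamoxifen. Mrpl42 had 110 FPKM, 65.0 and 87.2 untreated and 144, 80.3 and 114 with tamoxifen. Both ranked the replicates 1, 3, 2 in each group, and their groups overlapped. The log2 fold changes were 0.41 for Mrpl52 (SE 0.10) and 0.36 for Mrpl42 (SE 0.09), with limma adjusted p-values of 0.0426 and 0.0422 with the block. None of the 6 was called when the block was left out (limma adjusted p = 0.999 for each). Mrps15 was the member still called with the block after leaving out number 1 (limma adjusted p = 0.0359) and after leaving out number 3 (0.0405), but not after leaving out number 2 (0.162).

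**Figure D2:**
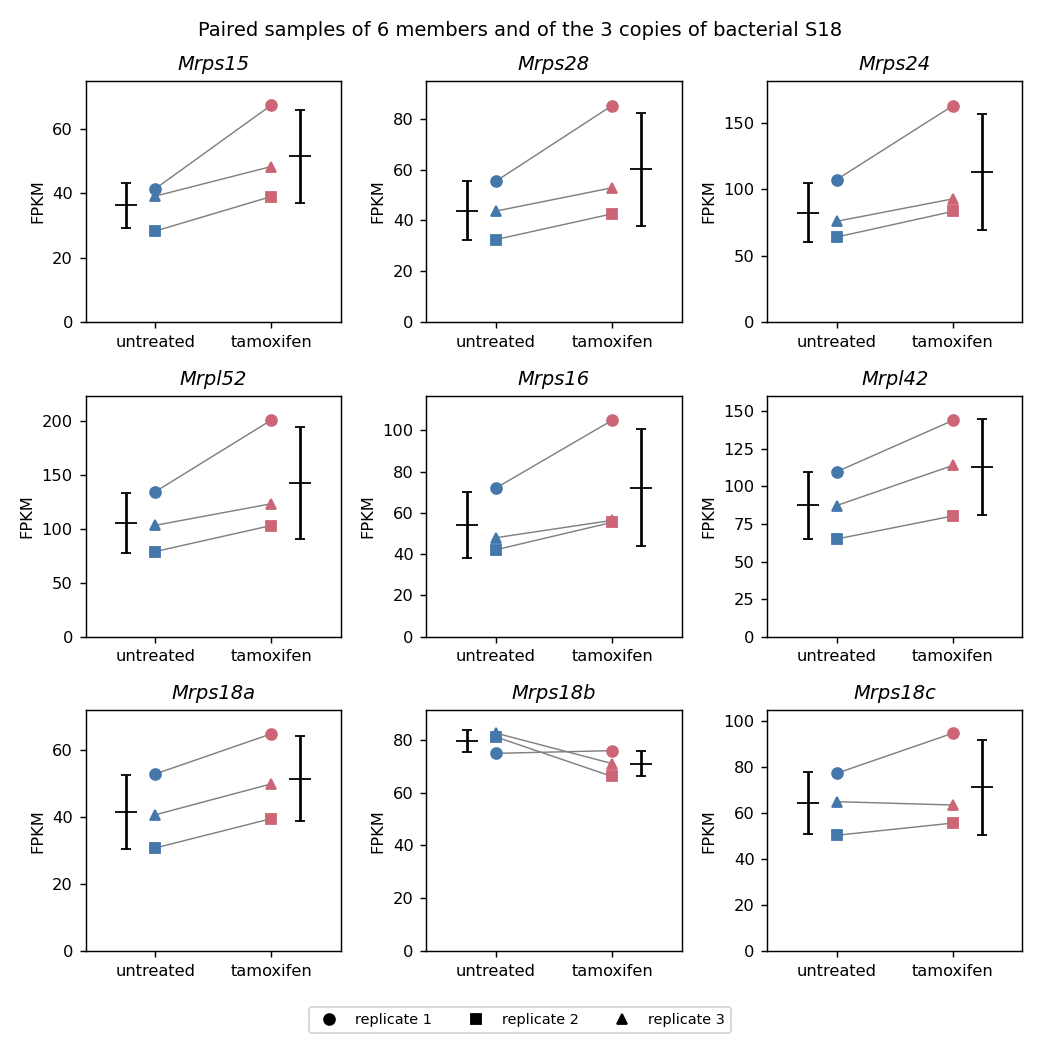
FPKM in untreated and tamoxifen samples for the 6 members called with the replicate block and for the 3 relatives of bacterial S18. Grey lines join samples with the same replicate number, and black bars give the group mean ± SD (n = 3), from an axis that starts at 0. In the upper 2 rows every line slopes upward while the groups overlap, and Mrps18b is the panel in which replicate numbers 2 and 3 slope downward.

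Promoters of some of the named members are shown beside the frequency of motifs over all members. RefSeq promoter windows of 300 bp (250 bp before to 50 bp after the start, GRCm38.p6) were found for 67 of the 76 members, with 73 windows in all. Mrpl2, Mrpl48 and Mrps16 have several windows each, which can overlap, and the shares over all windows given below count windows and not genes. Shown are the 120 bases just upstream of the start, read in the direction of the gene, for 4 of the members called with the block, for Mrps18a, and for Mrpl34, which had a mean difference near 0. Capitals mark the ETS core CCGGAAG on either strand. The 4 called members are at chr4:126046808-126046927 (Mrps15, plus), chr11:5707702-5707821 (Mrps24, minus), chr14:54426789-54426908 (Mrpl52, plus) and chr10:95501950-95502069 (Mrpl42, minus). The others are at chr17:46110884-46111003 (Mrps18a, plus) and chr8:71464806-71464925 (Mrpl34, plus).
Mrps15: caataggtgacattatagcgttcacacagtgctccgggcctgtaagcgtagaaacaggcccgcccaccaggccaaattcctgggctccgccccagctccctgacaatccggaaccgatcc
Mrps24: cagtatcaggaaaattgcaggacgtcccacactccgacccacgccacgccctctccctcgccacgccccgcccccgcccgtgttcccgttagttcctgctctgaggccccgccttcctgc
Mrpl52: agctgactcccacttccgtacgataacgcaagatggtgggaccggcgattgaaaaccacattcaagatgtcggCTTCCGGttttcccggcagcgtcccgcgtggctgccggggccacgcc
Mrpl42: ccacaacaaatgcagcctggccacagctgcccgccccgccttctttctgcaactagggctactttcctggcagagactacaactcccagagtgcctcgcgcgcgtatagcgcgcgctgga
Mrps18a: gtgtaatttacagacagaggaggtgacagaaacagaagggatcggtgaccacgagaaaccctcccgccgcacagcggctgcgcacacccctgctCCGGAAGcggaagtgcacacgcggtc
Mrpl34: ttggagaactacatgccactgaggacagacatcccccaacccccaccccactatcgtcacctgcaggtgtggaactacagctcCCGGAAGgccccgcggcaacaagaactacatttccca

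Among these 6 stretches an ETS core was present in Mrpl52, Mrps18a and Mrpl34 and not in Mrps15, Mrps24 or Mrpl42. Of stretches not shown, that of the called member Mrps16 had it upstream of 1 start (chr14:20393491-20393610) and not upstream of another (chr14:20393635-20393754). Those of Mrpl12, Mrps12, Mrps18b and Mrps18c, which were not called, had no ETS core within the 120 bases. The full 300 bp windows of Mrps12, Mrps18b and Mrps18c did hold a core. Those of Mrpl12, Mrps15, Mrps24 and Mrpl42 did not. In these stretches the core was thus both present and absent among called members and among the rest. Over all windows the ETS core, the type of site bound by GABPA, was found on either strand in 32.9% of member windows (24 of 73), against 16.8% of the windows of tested genes and 8.9% of all windows. The YY1 motif AAGATGGC was found in 16.4%, against 4.2% and 2.7%. The palindromic NRF1 motif was found in 4.1% (Mrpl9, Mrpl32 and Mrpl39, named after the matches were seen), against 2.0% and 1.0%. The GC box GGGCGG was in 52.1% of member windows, against 63.2% of those of tested genes. The E-box CACGTG was in 9.6% against 9.9%, and TATAAA in 6.8% against 7.2%. Member windows with the E-box belonged to 5 genes and those with the GC box to 33. All 6 motifs were searched on both strands, and none contains another. The member windows had a median GC content of 58.3% and 21 CpG dinucleotides, close to the 61.0% and 20 of tested genes and above the 52.7% and 7 of all windows. These are matches of letters and not measured sites of binding.

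Large subunit members had a median log2 fold change of 0.25, with 47 of 48 above 0. It became 0.05 without tamoxifen replicate 1, 0.06 without untreated replicate 2, 0.375 without untreated replicate 1 and 0.39 without tamoxifen replicate 2. Around the factor-binding stalk, Mrpl12 had 131, 77.8 and 97.2 FPKM untreated and 174, 101 and 112 with tamoxifen, a log2 fold change of 0.33 (SE 0.09, limma adjusted p = 0.0641 with the block). Mrpl11, at the base of the stalk, was at 18.9 ± 4.77 FPKM untreated and 24.1 ± 8.12 with tamoxifen (SD, n = 3). Both were higher within each replicate number and neither passed the test. Mrpl3, which reaches toward the peptidyl transferase centre, differed little, with 29.0 ± 4.99 and 30.4 ± 0.818 FPKM, and was lower in number 3.

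Mrpl45 helps to hold the ribosome at the inner membrane, where the nascent proteins are inserted. It had 67.1, 37.4 and 60.5 FPKM untreated and 98.1, 47.9 and 63.6 with tamoxifen (log2 fold change 0.33, limma adjusted p = 0.106 with the block). Mrpl44, a member with a domain related to RNase III, had 27.3 ± 6.02 and 32.3 ± 5.14 FPKM. Mrps30, placed in the large subunit despite its name, had 41.1 ± 9.53 and 49.0 ± 10.9 FPKM. For these 3 genes the tamoxifen sample was above the untreated sample in all 3 numbers, and the groups overlapped.

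Of the large subunit members 1 had a mean difference below 0. Mrpl34 (chr8:73988825-73989652, plus strand) had 104, 69.15 and 66.8 FPKM untreated and 105, 70.3 and 58.1 with tamoxifen. Replicate 1 was high in both groups and the groups overlapped almost completely. The log2 fold change of -0.05 (SE 0.09, limma adjusted p = 0.740 with the block) became 0.05 with scaling to TPM. The most abundant member, Mrpl33, had a difference of 0.08, which became -0.02 under quantile normalization and -0.005 under TPM scaling without short loci, and Mrpl20 had 0.04, which became -0.04 and -0.05 in the same settings.

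Small subunit members had a median log2 fold change of 0.17, with 24 of 26 above 0. This median became -0.02 without tamoxifen replicate 1, 0.03 without untreated replicate 2, 0.29 without untreated replicate 1 and 0.30 without tamoxifen replicate 2. Mrps18b and Mrps21 were below 0 (-0.16 and -0.01), the latter named after its values were seen. The large and small subunit medians were 0.32 and 0.31 within replicate number 1, 0.25 and 0.18 within number 2, and 0.12 and 0.005 within number 3. The small subunit median was thus the lower of both in each number, and the difference between subunits was not tested. Members with a bacterial counterpart (48) and mitochondria-specific members (26) had medians of 0.235 and 0.19. Within numbers these were 0.30 and 0.33, 0.23 and 0.24, and 0.13 and 0.09, with no constant order. Mrps12, whose bacterial counterpart is the decoding-centre protein of streptomycin resistance, had 46.3 ± 8.23 FPKM untreated and 56.1 ± 15.3 with tamoxifen and was higher in all 3 numbers. Mrps22, a mitochondria-specific protein, had 25.7 ± 4.46 and 29.5 ± 4.83 FPKM and was also higher in all 3.

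**Figure D3:**
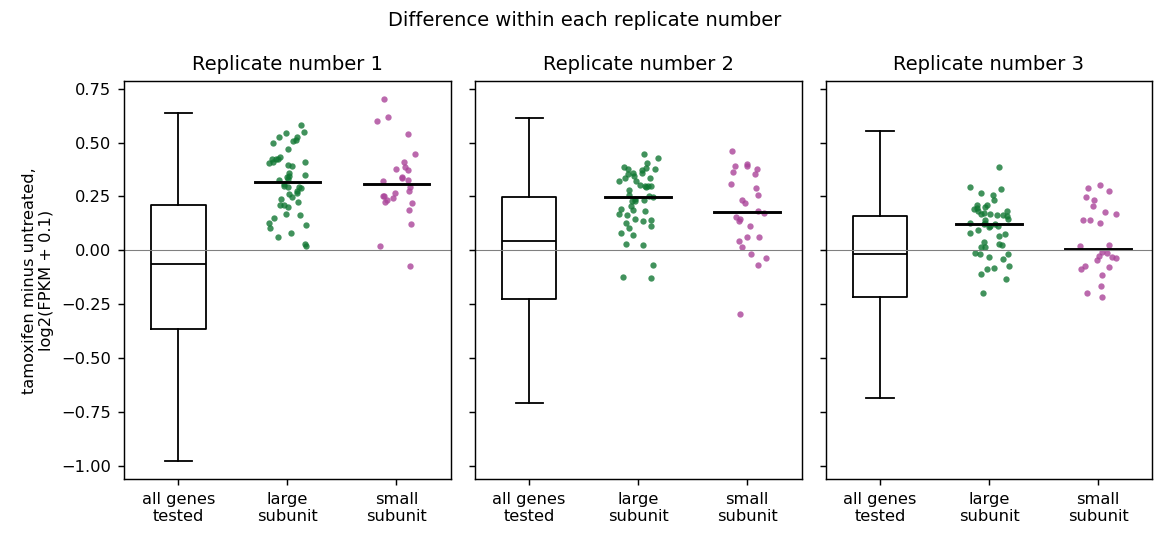
Difference between the tamoxifen and the untreated sample of each replicate number, in log2(FPKM + 0.1), for all 12997 tested genes (box with quartiles and median, whiskers from the 5th to the 95th percentile), for large subunit members (green) and for small subunit members (purple). Each point is a gene and thick lines are medians, which fall from 0.32 and 0.31 in number 1 to 0.12 and 0.005 in number 3.

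Mammalian mitochondria keep 3 genes related to bacterial S18, and the 3 differed in the direction of their means. Mrps18a (chr17:46247953-46265857, plus strand), of the large subunit, had 52.9, 30.8 and 40.7 FPKM untreated and 64.9, 39.6 and 49.9 with tamoxifen. Mrps18b (chr17:36047330-36053314, minus strand), of the small subunit, had 74.8, 81.0 and 82.5 FPKM untreated and 75.8, 66.1 and 71.0 with tamoxifen. Mrps18c (chr5:101227778-101233486, plus strand), which occupies the conserved S18 site, had 77.5, 50.5 and 65.1 FPKM untreated and 94.9, 55.8 and 63.7 with tamoxifen. Mrps18a was higher with tamoxifen in 3 numbers, Mrps18c in 2, and Mrps18b in 1, where the difference was 0.02.

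The log2 fold changes were 0.32 for Mrps18a (95% confidence interval with the block 0.11 to 0.52, limma adjusted p = 0.0618), 0.13 for Mrps18c (-0.10 to 0.36, adjusted p = 0.391) and -0.16 for Mrps18b (-0.39 to 0.07, adjusted p = 0.300). None passed the test, and the difference between the 3 genes was not tested. Mrps18b had the lowest fold change of the 75 members, and it was also the member in which the untreated replicates 2 and 3 were above untreated replicate 1. Its mean difference was below 0 under each scaling, from -0.25 under quantile normalization to -0.06 with TPM.

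Mrps36, outside the ribosome by current assignment, had 17.2, 15.96 and 18.7 FPKM untreated and 25.1, 12.4 and 15.9 with tamoxifen. The tamoxifen samples lay on both sides of the untreated ones. Its log2 fold change was -0.01 (SE 0.17, limma adjusted p = 0.965 with the block), and 0.09 with TPM scaling.

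Replicate numbers 1 and 2 differed by more than the treatments did, in both groups. Over the members the median FPKM was 41.7, 28.3 and 35.97 in untreated replicates 1, 2 and 3 and 51.0, 33.03 and 38.5 in tamoxifen replicates 1, 2 and 3. The mean over members of log2(FPKM + 0.1) was 5.15 ± 0.29 untreated and 5.35 ± 0.35 with tamoxifen (SD, n = 3). Replicate 1 was the highest and replicate 2 the lowest in both groups, and untreated replicate 1 lay above tamoxifen replicates 2 and 3.

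Replicate 1 exceeded replicate 2 by a median of 0.61 on the log2 scale among untreated samples (74 of 75 members above 0) and by 0.73 among tamoxifen samples (75 of 75). Over all tested genes the same differences were 0.13 and -0.02. Replicate 1 exceeded replicate 3 by a member median of 0.23 untreated and 0.46 with tamoxifen, and replicate 3 exceeded replicate 2 by 0.37 and 0.21, so that the smaller of these were close to the treatment difference. Tamoxifen replicate 1 held the highest value of 70 members and untreated replicate 2 the lowest of 64. The treatment difference within numbers was also unequal, with member medians of 0.32, 0.23 and 0.11 in numbers 1, 2 and 3 and 74, 67 and 50 members above 0, against medians over all genes of -0.065, 0.04 and -0.02. The member median of 0.215 became 0.04 without tamoxifen replicate 1, 0.05 without untreated replicate 2, 0.34 without tamoxifen replicate 2 and 0.34 without untreated replicate 1. Removing a number from both groups gave 0.17, 0.20 and 0.27 without numbers 1, 2 and 3, an alternative chosen after the data were seen.

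The size of the difference moved with transcript length over all genes, and members are short. The longest annotated transcript had a median of 1213 bases among members and 2959 among tested genes with a length. Over all genes the median log2 fold change was 0.19 for transcripts under 1000 bases, 0.10 from 1000 to under 2000, -0.02 from 2000 to under 4000 and -0.14 from 4000 upward. Member medians in the same bands were 0.25 (26 members), 0.21 (31), 0.16 (13) and 0.19 (5). The members thus lay above the genes of their band in each band, by less among short transcripts, where most members are. Among genes with a mean FPKM of 10 or more and a transcript under 2000 bases the median was 0.155 over 1945 genes and 0.22 over the 56 members among them. Within the numbers these medians were 0.25, 0.16 and 0.055 for the genes and 0.30, 0.23 and 0.12 for the members. The part of transcript length in the member difference was not tested.

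**Figure D4:**
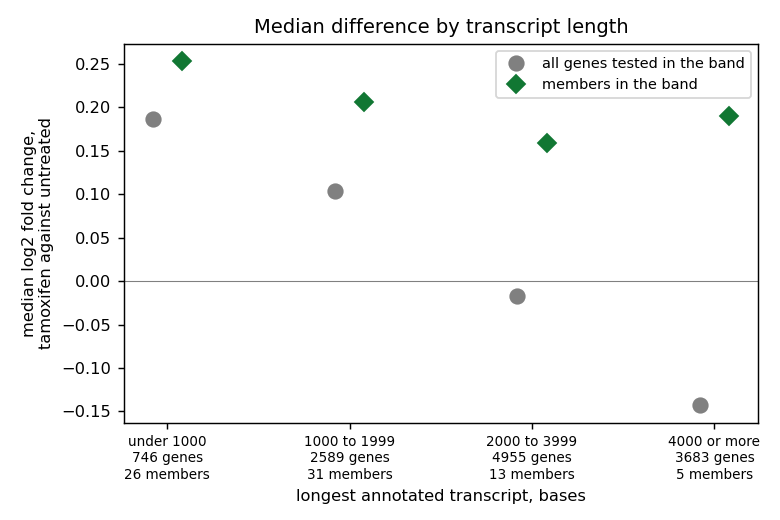
Median log2 fold change, tamoxifen against untreated, of all tested genes (grey circles) and of the members (green diamonds) in 4 bands of longest annotated transcript. Grey medians fall from 0.19 to -0.14 with length, while member medians stay between 0.16 and 0.25.

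Some members start close to a neighbour that is read in the opposite direction. With annotated starts within 1000 bp, 27 of 75 members (36%) had such a head-to-head partner, against 15.2% of all tested genes found in the annotation. The 26 partners that were tested had a median log2 fold change of 0.05, with 17 above 0. In Mrpl46 and Mrps11 both partners are members, 1 from each subunit, and in the RefSeq annotation their starts are separated by 41 bases (GRCm38.p6 chr7:78783090-78783130), shown on the plus strand because this is the whole interval that both genes have in common. The pair was chosen for its position.
Mrpl46 to Mrps11: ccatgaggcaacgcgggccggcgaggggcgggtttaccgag

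Mrpl46 had 33.8, 19.8 and 30.1 FPKM untreated and 44.8, 23.7 and 32.9 with tamoxifen. Mrps11 had 24.8, 16.8 and 20.0 FPKM untreated and 30.0 FPKM, 19.8 and 19.4 with tamoxifen. Both were highest in tamoxifen replicate 1 and lowest in untreated replicate 2, with log2 fold changes of 0.26 and 0.15 that did not pass the test (limma adjusted p = 0.127 and 0.357 with the block). Mrps12 (0.26) is paired with Sars2, the mitochondrial seryl-tRNA synthetase (0.17, limma adjusted p = 0.256 with the block). Of the 26 partners tested, 1 (3.85%) was called higher and 2 (7.69%) lower with the block, near the 4.33% and 6.06% of all tested genes. Tmem63b, next to Mrpl14 (0.06), fell by 0.44 (log2 fold change; adjusted p = 0.0263 in the blocked limma fit). Ppp1r10, whose start lies 45 bp from that of Mrps18b, fell by 0.45 (limma adjusted p = 0.0424 with the block). Ptcd2, next to Mrps27 (0.22), rose by 0.48 (limma adjusted p = 0.0272 with the block). These partners were named after their values were seen.

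The rest of the mitochondrial translation pathway was taken from lists of known genes. The counts called in these lists stand beside 4.33% of all tested genes called higher and 6.06% called lower with the block. Of 7 further mitoribosome proteins whose symbols lie outside the member rule, 1 was called with the block and 0 were called lower, with a median log2 fold change of 0.17 (0.04 without tamoxifen replicate 1, 0.08 without untreated replicate 2, 0.34 without untreated replicate 1 and 0.30 without tamoxifen replicate 2). This was Gadd45gip1, a large subunit protein, with 41.3, 17.8 and 19.1 FPKM untreated and 65.5, 29.0 and 26.2 with tamoxifen (log2 fold change 0.61, limma adjusted p = 0.0131 with the block). Dap3, a GTP-binding protein of the small subunit, had 18.7 ± 4.08 and 22.7 ± 6.70 FPKM and did not pass the test. Replicate 1 was again the highest of both groups in both genes.

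Translation factors (14 genes, 0 called in either direction with the block) had a median of 0.12, which became 0.06 without tamoxifen replicate 1 and 0.03 without untreated replicate 2. Slirp and Tsfm, which act in messenger RNA stability and elongation, had log2 fold changes of 0.31 each (limma adjusted p = 0.128 and 0.100 with the block). Among 22 assembly and ribosomal RNA factors, with a median of 0.12, 1 was called higher and 0 lower. That median became 0.005 without tamoxifen replicate 1, 0.065 without untreated replicate 2 and 0.19 without untreated replicate 1. Tfb1m, the methyltransferase that modifies the small ribosomal RNA, had 15.8, 8.31 and 14.4 FPKM untreated and 20.4, 14.4 and 18.3 with tamoxifen (log2 fold change 0.50, limma adjusted p = 0.0416 with the block). Among 17 mitochondrial aminoacyl-tRNA synthetases, with a median of 0.09, the valine enzyme Vars2 was the 1 called (0.43, limma adjusted p = 0.0401 with the block). The synthetase median became 0.05 without tamoxifen replicate 1, 0.02 without untreated replicate 2, 0.18 without tamoxifen replicate 2 and 0.19 without tamoxifen replicate 3.

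Of 10 genes for transcription and maintenance of mitochondrial DNA, with a median of 0.25 (0.12 without tamoxifen replicate 1), 1 was called higher and 0 lower. Tefm, the elongation factor of the mitochondrial RNA polymerase, had 25.3, 16.5 and 23.9 FPKM untreated and 37.2, 24.7 and 33.9 with tamoxifen (log2 fold change 0.55, limma adjusted p = 0.0138 with the block). The polymerase gene Polrmt (-0.12) and Tfam (0.23) did not pass. With the block each of these pathway lists held at most 1 gene called higher. In the order given this was 14.3%, 0%, 4.55%, 5.88% and 10% of the list, against 4.33% of all tested genes.

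Of 11 nuclear regulators of mitochondrial protein genes 10 were tested, with a median of 0.02 that became -0.065 with TPM scaling without short loci, -0.075 without untreated replicate 2 and -0.06 without tamoxifen replicate 3. It was 0.12 without tamoxifen replicate 1, 0.135 without untreated replicate 3 and 0.01 without tamoxifen replicate 2. Nrf1 (0.01), Gabpa (0.04), Yy1 (0.04) and Esrra (-0.03) each had a difference below 0.05 in size, none of which passed the test. Myc, a transcription factor that promotes ribosome production, had 11.4, 16.1 and 29.6 FPKM untreated and 5.62, 9.04 and 17.3 with tamoxifen. It was lower within each number, although tamoxifen replicate 3 was above untreated replicates 1 and 2. It fell by 0.87 in log2 units (SE 0.10, limma adjusted p = 0.0049 with the block), the 1 regulator called. Mycn, which is expressed above Myc in these cells, had 53.1 ± 21.2 and 64.7 ± 20.6 FPKM (log2 fold change 0.31, limma adjusted p = 0.111 with the block).

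**Figure D5:**
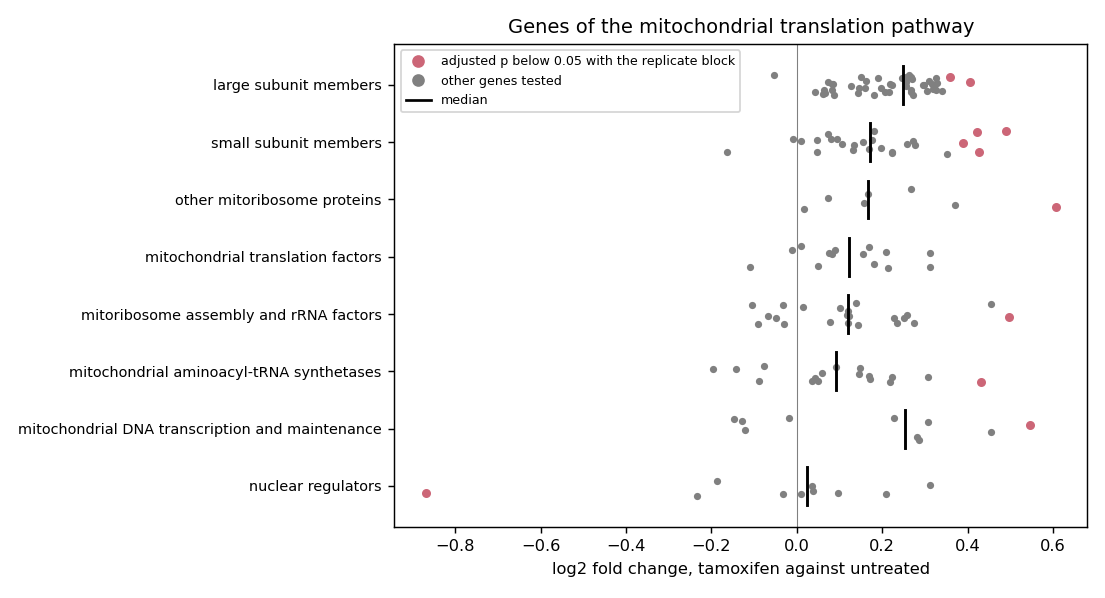
Log2 fold change, tamoxifen against untreated, of each tested gene of the mitochondrial translation pathway, by list. Red points have a limma adjusted p below 0.05 with the replicate block and black bars are medians, which range from 0.02 for the nuclear regulators (-0.07 with TPM scaling without short loci) to 0.25. The red point on the left is Myc.

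Genes with symbols of cytosolic ribosomal proteins (cytosolic genes) gave the nearest comparison. They were taken by a symbol pattern that also admits other genes, such as S6 kinase genes named Rps6ka, and any such genes were not removed. Mean FPKM in this set ranged from 0.913 to 2015, and log2 fold changes from -0.42 to 2.19. The 92 cytosolic genes had a median log2 fold change of 0.26, which became -0.04 without tamoxifen replicate 1, 0.07 without untreated replicate 2, 0.52 without untreated replicate 1 and 0.44 without tamoxifen replicate 2. With the block 7 (7.61%) were called higher and 0 lower, against 4.33% and 6.06% of all tested genes. Their medians within replicate numbers 1, 2 and 3 were 0.34, 0.29 and 0.15, beside 0.32, 0.23 and 0.11 for the members. Replicate 1 exceeded replicate 2 by 0.91 and 0.99 in the untreated and tamoxifen groups for the cytosolic genes, and by 0.61 and 0.73 for the members. No difference between members and cytosolic genes was tested. Markers of primitive endoderm also differed between the groups, with a summed FPKM of 2.29 to 4.2 over 4 genes in untreated and 1.34 to 1.64 in tamoxifen samples. Gata4 and Gata6 were called lower with the block (limma adjusted p = 0.0359 and 0.0174). The part of these cells in the member difference was not tested. Leaving out replicate number 1, 2 or 3 from both groups left 8, 0 and 5 of the 10 genes named here as called from the pathway lists, the partners and these markers. None of these 10 genes was called in limma without the block, with an adjusted p of 0.664 for Gata6, 0.849 for Gata4 and 0.999 for each of Myc, Gadd45gip1, Tefm, Tfb1m, Vars2, Tmem63b, Ppp1r10 and Ptcd2.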

How the data were processed

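RNA-seq was analysed for 3 untreated and 3 tamoxifen samples, grouped by their sample labels. Per the study's methods and processing notes, directional paired-end libraries with reads of 51 bp were aligned to mm9 with Tophat2 (listed as 0.5), and expression was computed with cuffdiff 2.1.1 on refGene models, using biological triplicates. The authors deposited FPKM per gene row with confidence bounds and a status, which were used as they stand. Read counts are not in the tables, and so no interval that needs depth is given. No setting for strand in the counting is given in the sources used here.

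Rows were summed by gene name, 6 gene names with a failed status (0 of them members) were left out, and genes with at least 0.5 FPKM in at least 3 samples were kept. The tamoxifen and untreated samples entered a linear model of log2(FPKM + 0.1), fitted in R 4.3.3 by limma 3.58.1 (eBayes with a mean-variance trend, Benjamini-Hochberg adjustment over the 12997 genes, threshold 0.05, two-sided). The fit was tested on simulated data. The replicate number was added as a block in a second fit, because samples with the same number deviated together (correlations 0.544, 0.605 and 0.506). Values for different numbers were -0.379 to -0.105. Deviations from a group mean cancel out within the group, so positive values for the same number force negative ones for different numbers on average. The labels do not say what a number stands for, and p-values measure only the spread between these samples, which may be technical. Medians and counts over members were not tested.

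Members and gene lists were chosen with earlier results of these data known. Named members were those called with the block, the 5 highest and 5 lowest in level, the 3 largest and 3 smallest fold changes, a list of members with known roles, and members listed at 0. Alternatives were other pseudocounts, filters, scalings (TPM, TPM without short loci, quantile), the highest row per gene, no trend, the ratio of means, each sample left out, and, after the data were seen, each replicate number left out of the blocked fit and the midpoint of the deposited bounds. Loci are in mm9 as deposited. Transcript lengths and head-to-head starts came from the GENCODE annotation of that build and promoters from RefSeq (GRCm38.p6).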

Additional observations from a re-analysis of the deposited data

How the results depend on the processing

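The median log2 fold change of the members stayed above 0 in every alternative run, and members were called only in fits with the replicate block. The replicate block changed the number of members called higher from 0 to 6, with 563 higher and 787 lower over all genes, against 3 and 1 without it. With the block and quantile normalization 1 member was called (558 higher and 586 lower over all genes), and with the block and TPM scaling 1 (430 and 336). With the block and without replicate 1, 2 or 3, chosen after the data were seen, 1, 0 and 1 members were called, with 744, 36 and 359 genes higher and 1011, 43 and 478 lower. No member was called lower in any of these fits. The cause was not tested. Without the block, calls over all genes were 0 lower at a pseudocount of 1, 1 higher and 0 lower with no filter, 0 and 0 at 1 FPKM in all 6 samples, and 2 to 5 higher and 0 to 7 lower when single samples were left out, with 0 members called throughout.

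Scaling to TPM moved the median of all genes from -0.019 to 0.081, and scaling without loci under 300 bp moved it to -0.105. The member median was 0.317 and 0.128 in these settings and 0.176 with quantile normalization. The large subunit median was 0.349 with TPM, with or without the block. Members with all tamoxifen samples above all untreated samples numbered 0 with TPM (1.35% of all genes), 3 with TPM without short loci (3.36%) and 3 with quantile normalization (4.45%). Members lower in 3 of 3 numbers were 3 with TPM without short loci (37.6% of all genes) and 3 with quantile normalization (23.9%). These counts are the same with the block. These counts have no value with a sample left out.

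When single samples were left out, the member median ranged from 0.036 to 0.338 (relative to all genes 0.038 to 0.366). The large subunit median ranged from 0.052 to 0.387, and the small subunit median from -0.018, without tamoxifen replicate 1, to 0.296. The nuclear regulators ranged from -0.075 to 0.135, and the genes matched by the cytosolic ribosomal symbol pattern from -0.044 to 0.516. Single members changed sign, Mrpl34 between -0.292 and 0.151, Mrps36 between -0.293 and 0.214, Mrpl20 between -0.079 and 0.165, Mrpl3 between -0.057 and 0.194, Mrpl33 between -0.077 and 0.169, Mrps25 between -0.149 and 0.239, Mrpl41 between -0.042 and 0.379 and Mrps18c between -0.089 and 0.294. With TPM, with or without the block, Mrpl34 was 0.049 and Mrps36 0.086, and by the ratio of group means Mrps36 was 0.045. With TPM without short loci Mrpl20 was -0.046, Mrpl3 -0.005, Mrpl33 -0.005, Mrps25 -0.008 and the regulators -0.065. With quantile normalization, with or without the block, Mrpl20 was -0.043 and Mrpl33 -0.018. With the block and without replicate 1, Mrpl20 was -0.057, Mrpl33 -0.045 and Mrps25 -0.052. Without replicate 2, Mrpl3 was -0.037, Mrps36 0.159 and the regulators -0.057, and without replicate 3 Mrpl34 was 0.021 and Mrps36 0.092. The depth behind single values is unknown, and 3 samples a group limit what the fits can show.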

Other observations

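The deposited confidence bounds of the members were not centred on their FPKM. Of the 456 member values over the 6 samples, 337 lay above their own upper bound, and the FPKM divided by the midpoint of its bounds had a median over members of 1.15 to 1.174 in the 6 samples. The median log2 fold change of the members was 0.219 when the midpoint replaced the FPKM, an alternative chosen after the data were seen. Among the members, log2 fold change had a Spearman rho of 0.111 with mean FPKM and -0.083 with transcript length, over 75 genes that share the same 6 libraries.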
